A study of Mus musculus with 42 samples.

Results

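The alpha subunits of the voltage-gated potassium channels (Kv channels) were described in 42 RNA sequencing libraries of mouse brain. Members were the protein-coding genes whose symbol is Kcn, then a, b, c, d, f, g, h, q, s or v, then a number. Of 21983 protein-coding genes in the tables, 40 met this rule: 8 Kcna, 2 Kcnb, 4 Kcnc, 3 Kcnd, 1 Kcnf, 4 Kcng, 8 Kcnh, 5 Kcnq, 3 Kcns and 2 Kcnv genes. Of the libraries, 20 were labelled cerebellum and 22 hippocampus. Under each label, mice had eaten a control diet (11% fat) or a western diet (42% fat) for 12 weeks, each with or without NaKtide, a peptide from the sodium pump Na,K-ATPase that blocks its signalling through the kinase Src. NaKtide came from a transgene that 300 mg/kg doxycycline in the diet switched on. The NaKtide groups therefore differed from the others by transgene and NaKtide together, and the sources used here do not give the promoter of the transgene, the strain, sex and age of the mice, or whether the other mice ate doxycycline. Each of the 4 groups had 5 libraries under the cerebellum label. Under the hippocampus label there were 6 libraries on control diet and 5 on western diet without NaKtide, and 5 and 6, respectively, with it, numbered here as in the labels. Nothing in the labels ties each library to its own animal. The p-values then reflect only how much these samples vary, and that variation may be technical.

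A Kv channel is a ring of alpha subunits around a pore that opens when the membrane is depolarised and lets potassium leave the cell, which ends action potentials and limits repetitive firing. The Shaker (Kcna), Shab (Kcnb), Shaw (Kcnc) and Shal (Kcnd) subfamilies form delayed rectifier and A-type channels. Kcnq subunits carry the M-current, Kcnh subunits form the ether-a-go-go channels, and Kcnf, Kcng, Kcns and Kcnv subunits are silent alone and modify Shab channels. Neurons combine them differently: Shaw channels serve fast-spiking cells, Shal channels the A-type current of dendrites, and Shaker channels the axon.

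Upstream sequences are shown for both pairs of subfamily partners that were lower in libraries labelled hippocampus with NaKtide on western diet and that the RefSeq promoter table (GRCm38.p6) holds. It held 25 of the 40 members. Each sequence is the 250 bases before the RefSeq transcription start, 5′ to 3′ on the gene's strand, which is the plus strand for all of these genes: chr6:21215096-21215345 for Kcnd2, chr3:105451640-105451889 for Kcnd3, chr7:46396218-46396467 for Kcnc1 and chr10:112270871-112271120 for Kcnc2. Capitals mark GC boxes, the letters GGGCGG on either strand.
Kcnd2 upstream bases: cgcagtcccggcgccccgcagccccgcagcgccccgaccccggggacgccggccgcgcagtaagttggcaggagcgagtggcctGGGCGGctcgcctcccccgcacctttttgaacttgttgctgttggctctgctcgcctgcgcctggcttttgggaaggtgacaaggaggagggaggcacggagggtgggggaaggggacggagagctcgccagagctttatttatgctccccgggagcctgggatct
Kcnd3 upstream bases: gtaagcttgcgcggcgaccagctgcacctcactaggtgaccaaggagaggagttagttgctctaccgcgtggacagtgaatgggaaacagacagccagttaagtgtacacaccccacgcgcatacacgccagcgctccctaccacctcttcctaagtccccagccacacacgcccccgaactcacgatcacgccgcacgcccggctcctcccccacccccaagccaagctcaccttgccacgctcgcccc
Kcnc1 upstream bases: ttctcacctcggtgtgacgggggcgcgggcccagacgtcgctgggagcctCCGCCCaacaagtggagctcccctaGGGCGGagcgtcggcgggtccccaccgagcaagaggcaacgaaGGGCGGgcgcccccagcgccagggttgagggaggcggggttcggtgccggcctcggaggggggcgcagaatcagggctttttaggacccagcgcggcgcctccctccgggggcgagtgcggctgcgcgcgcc
Kcnc2 upstream bases: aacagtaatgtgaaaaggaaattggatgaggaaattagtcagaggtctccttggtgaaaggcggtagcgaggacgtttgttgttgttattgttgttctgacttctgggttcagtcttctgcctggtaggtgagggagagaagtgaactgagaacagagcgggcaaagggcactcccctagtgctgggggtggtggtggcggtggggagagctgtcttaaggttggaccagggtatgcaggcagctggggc
Kcnd2 held 1 GC box and 22 CG dinucleotides, and Kcnd3 held no GC box and 18 CG dinucleotides. Kcnc1 held 3 GC boxes and 30 CG dinucleotides, whereas Kcnc2 held no GC box and 5. In each pair, 1 partner held a GC box and the other held none. The number of CG dinucleotides was closer for Kcnd2 and Kcnd3 than for Kcnc1 and Kcnc2. Over the 25 members with a window, 15 (60.0%) held a GC box, against 32.7% of the 32851 windows in the table. The median number of CG dinucleotides was 16 against 6. Each member had 1 window here, the nearest to its annotated gene start. The shares over all windows were not limited to 1 window per gene, so the sets are unlike. No member window held the TATA box TATAAA, which 12.4% of all windows held on either strand. A match of letters is a description of the window and shows no binding.

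Levels between genes were compared in FPKM, which accounts for exon length. By mean over the 42 libraries, the Shaw gene Kcnc4 stood at 20.4 ± 7.04 FPKM (SD). The most abundant members of their own subfamilies included the ether-a-go-go gene Kcnh3 at 19.5 ± 11.8 FPKM, the Shaker gene Kcna6 at 17.8 ± 3.17 FPKM, the modifier Kcnf1 at 16.8 ± 9.39, the A-type gene Kcnd2 at 10.3 ± 5.52, and the modifiers Kcng1 at 6.32 ± 3.81, Kcnv1 at 5.60 ± 4.27 and Kcns1 at 4.76 ± 2.51. Neighbours among these 8 genes differed by less than either SD between libraries, except that the steps from Kcnf1 to Kcnd2 and from Kcnd2 to Kcng1 exceeded the smaller SD of the pair. Summed over members, Shaw genes reached 63.9 FPKM, Shaker genes 40.1, ether-a-go-go genes 37.4 and Kcnq genes 27.5.

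Some members were steady over all libraries and others were not. Kcna6 varied 2.08-fold between its lowest and highest library and Kcna2, another Shaker gene, 2.90-fold. The modifier Kcng1 varied 247-fold, Kcnv1 209-fold, the M-current gene Kcnq5 163-fold and Kcnh3 141-fold. The lowest libraries behind these folds held few reads of the gene. Without cerebellum western 3, which held 2 counts each of Kcng1 and Kcnv1 and 3 of Kcnq5, they were 22.9-fold, 135-fold and 17.7-fold. Without cerebellum control 2, which held 10 counts of Kcnh3, that gene varied 56.7-fold. Libraries of both labels spanned much of these ranges, as the plot of FPKM by gene shows. Cerebellum western 3 was the lowest library for 15 of the 34 members that could be tested over all libraries, among them Kcnb2, Kcnc2, Kcnf1, Kcng1, Kcnq3, Kcnq5 and Kcnv1, and the highest for 4, among them Kcnc1, Kcnd2 and Kcng4. Hippocampus western 3 was the highest library for 5, among them Kcnh1, Kcnh5 and Kcnq3. The family took between 0.103% (hippocampus control with NaKtide 4) and 0.259% (hippocampus western 2) of a library's counts.

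**Figure D1:**
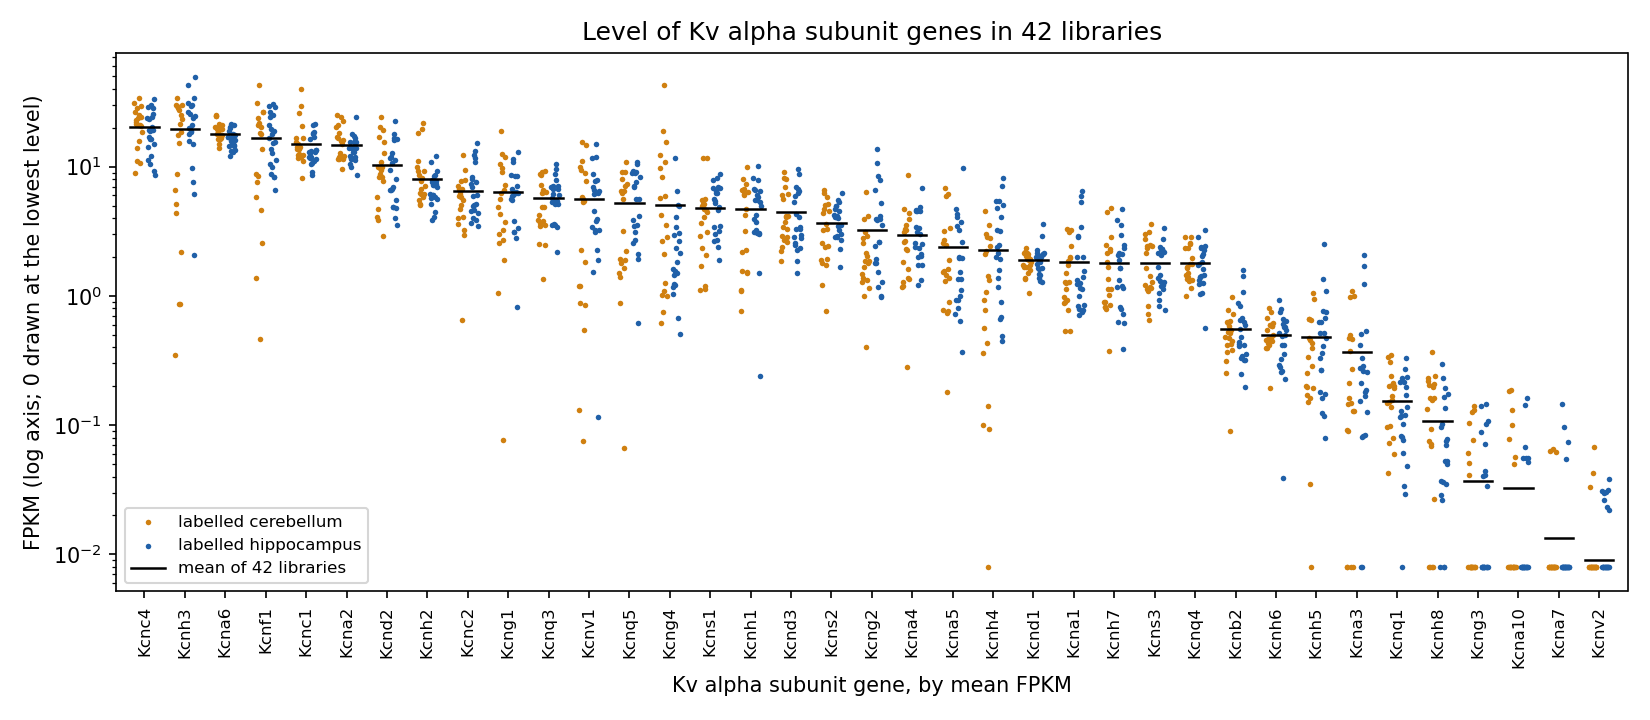
FPKM (log axis) of 37 Kv alpha subunit genes in 42 libraries, ordered by mean; points are libraries (orange labelled cerebellum, blue labelled hippocampus) and black lines are means. Orange and blue points cover similar ranges for most genes, and Kcnc4 has the highest mean of the genes shown, 20.4 FPKM.

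The low-count filter kept 33 members in the fit of either label and 34 in the fit of all 42 libraries. Kcnq1, which forms a cardiac and epithelial channel, had 4.33 counts per library on average, Kcnh8 had 3.33, Kcng3 0.881, Kcna10 0.500, Kcnv2 0.333 and Kcna7 0.191. These 6 were not tested, and the Shaker gene Kcna3 (5.21 counts) was tested only over all libraries. M21 annotation places a gene on the opposite strand within 15 members, including Kcnb2, Kcnd3 and Kcnq3. The library kit keeps strand per the labels, but the sources used here do not say how strand was used in counting, so reads of such partners may be mixed.

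The labels separated the libraries poorly. Library totals ran from 4669374 to 9521002 counts. A library's marker score was the mean of log2(CPM + 1) over a marker list, CPM being the count relative to the scaled library total. The score of 5 cerebellar granule cell markers ran from 1.17 to 8.52 in libraries labelled cerebellum and from 0.723 to 5.21 in those labelled hippocampus, and that of 6 hippocampal pyramidal cell markers from 2.61 to 6.53 and from 4.01 to 6.85. Group medians of the granule cell score were 1.42 to 2.06 under the cerebellum label and 1.30 to 1.91 under the hippocampus label, so most libraries labelled cerebellum were low in granule cell markers, and scores of the 2 labels overlapped for both lists. Between the labels, in a fit of all 8 groups, 0 of 34 members were called by edgeR's quasi-likelihood test with Benjamini-Hochberg adjustment over all genes (called means adjusted p under 0.05), beside 0.0468% of 17088 genes. At an unadjusted p under 0.05 there were 7 members, and DESeq2 called 0. The smallest p belonged to Kcna6, with a log2 difference of -0.23 ± 0.07 (SE, hippocampus minus cerebellum, adjusted p = 0.161), to the modifier Kcng4 with -1.38 ± 0.42 (0.176) and to the modifier Kcng2 with 0.84 ± 0.29 (0.221).

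With all libraries of a label and edgeR, members were called only for NaKtide on western diet under the hippocampus label. Of the comparisons within a label, this was also the only one with more than 1 gene called over all genes. In libraries labelled hippocampus, 7 of 33 members (Kcnb2, Kcna1, Kcnd3, Kcnd2, Kcnq3, Kcnc1 and Kcnc2) were lower with NaKtide and 0 were higher, by edgeR's quasi-likelihood test with Benjamini-Hochberg adjustment. Over the 16442 genes tested, 16.3% were lower and 17.4% were higher. The median log2 fold change was -0.46 over the members and 0.05 over all genes, and 23 members were negative and 10 positive. At an unadjusted p under 0.05 the shares were 33.3% of members and 44.9% of all genes.

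Kcnb2, a Shab delayed rectifier, lies at chr1:15287254-15723750 and had a mean of 0.556 FPKM. It stood at 9.91, 24.6, 21.6, 16.3 and 9.47 CPM in the western libraries 1 to 5. With NaKtide its lowest, median and highest levels were 2.96, 5.16 and 8.90 CPM. All 6 NaKtide libraries lay below all 5 others, and the log2 fold change was -1.55 ± 0.30 (SE, adjusted p = 0.00221), or 2.93-fold lower.

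Kcna1, a Shaker subunit of axons and their endings, lies at chr6:126640397-126646384 beside Kcna5 and Kcna6. Its CPM values were 15.8, 25.8, 28.0, 30.9 and 5.36 in the western libraries, and 3.61, 5.33 and 9.33 as lowest, median and highest with NaKtide. Western 5 lay inside the range with NaKtide and the other 4 above it. The log2 fold change was -1.85 ± 0.37 (adjusted p = 0.00268), or 3.61-fold lower. Its chromosomal neighbours did not follow: Kcna6 had 0.08 ± 0.14 (0.690), and Kcna5 had 1.41 ± 0.61 (0.0740).

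Both abundant Shal genes, which carry the A-type current of dendrites and cell bodies, were lower. Kcnd3 stood at 58.2, 93.6, 63.9, 83.7 and 62.0 CPM on western diet and at 22.2, 30.2 and 39.4 CPM (lowest, median, highest) with NaKtide. These groups did not overlap, and the log2 fold change was -1.26 ± 0.28 (adjusted p = 0.00376), or 2.39-fold lower. Kcnd2 stood at 81.2, 86.9, 92.1, 117 and 57.9 CPM on western diet and at 18.0, 26.5 and 84.2 CPM with NaKtide. Here 5 of 6 NaKtide libraries lay below all western libraries, and western NaKtide 6, at 84.2 CPM, lay among them. Its log2 fold change was -1.26 ± 0.32 (adjusted p = 0.00719), or 2.40-fold lower. The third Shal gene, Kcnd1, had 0.42 ± 0.20 (0.101) and was not called.

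The other called members changed less. Kcnq3, a subunit of the M-current channel, stood at 125, 117, 152, 141 and 79.4 CPM on western diet and at 32.7, 81.1 and 103 CPM (lowest, median, highest) with NaKtide. Western 5 again lay inside the NaKtide range, and the log2 fold change was -0.73 ± 0.25 (adjusted p = 0.0282).

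Of the Shaw genes, which let neurons fire fast, Kcnc1 stood at 165, 200.4, 172, 161 and 173 CPM on western diet and at 106, 125 and 201 CPM with NaKtide, and Kcnc2 at 85.8, 96.1, 82.1, 77.9 and 54.4 CPM and at 24.97, 34.0 and 108 CPM. For both genes, western NaKtide 3 was the single NaKtide library above all western libraries and the other 5 lay below all of them. The log2 fold changes were -0.40 ± 0.14 for Kcnc1 (adjusted p = 0.0351) and -0.81 ± 0.30 for Kcnc2 (0.0400). Kcnc4 had -0.32 ± 0.32 (0.461) and was not called.

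**Figure D2:**
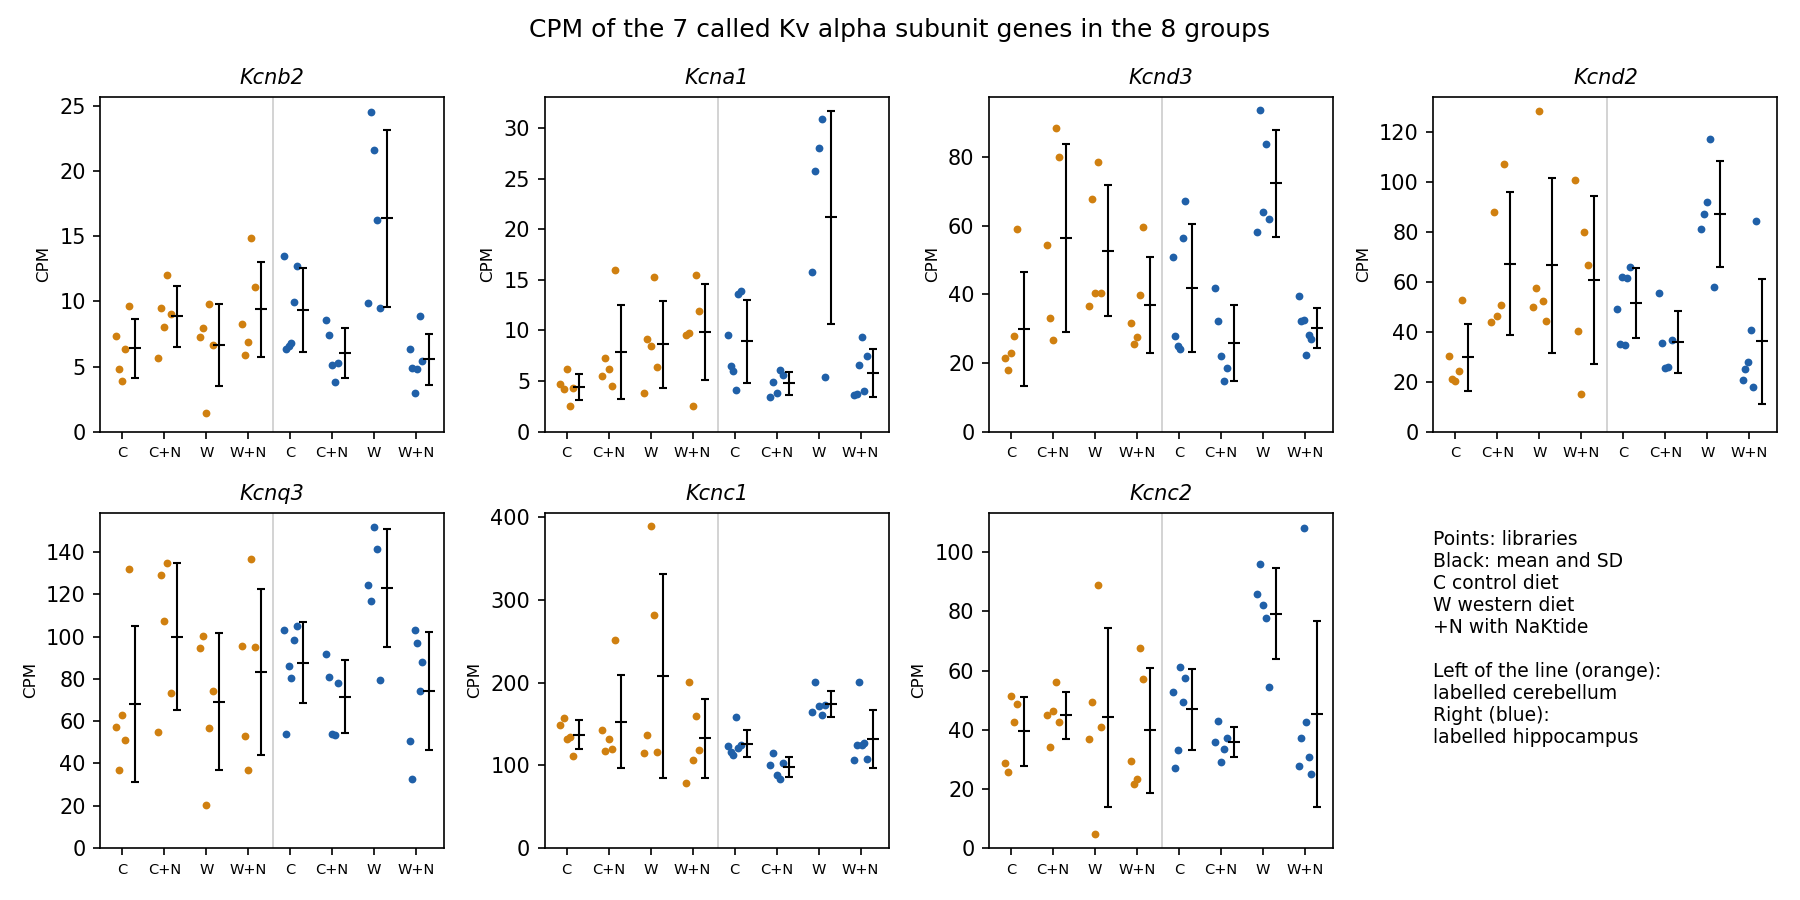
CPM per library (points) with mean and SD (black) for the 7 called genes in the 8 groups; C is control diet, W western diet, +N with NaKtide, left of the line labelled cerebellum, right labelled hippocampus. The hippocampus western group has the highest mean of the 4 groups of that label in every panel, and for Kcnb2 and Kcnd3 it does not overlap with the western group with NaKtide.

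Positive but uncalled values were those of Kcnh4, an ether-a-go-go gene, with 1.51 ± 0.62 (adjusted p = 0.0624), and of Kcna5, both called by DESeq2 but not by edgeR. Of the ether-a-go-go genes 0 of 7 were called, and of the modifiers Kcnf1, Kcng1, Kcng2, Kcng4, Kcns1, Kcns2, Kcns3 and Kcnv1 0 were called, with log2 fold changes from -1.16 (Kcnv1) to 0.12 (Kcng1).

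The calls differed in how much they rested on single libraries and on the model. Kcnb2 stayed called in 9 of 9 alternative analyses and in 22 of 22 fits without 1 library, but its log2 fold change ranged from -1.65 to -0.79 over the alternatives. It was -0.79 ± 0.26 (edgeR, adjusted p = 0.0343) when trends with exon length and GC content were taken out. With the main axis of variation among libraries of the opposite label as a covariate it was -0.88 ± 0.25 (0.0434). Kcna1, Kcnd2 and Kcnd3 stayed called in 22 of 22 fits without 1 library, but were not called with that covariate, where they had -1.14, -0.74 and -0.96 (adjusted p = 0.0773, 0.129 and 0.0682). With the covariate 4 members were called, Kcnb2 and Kcng4 lower and Kcnh3 and Kcnh4 higher, beside 2.93% of all genes lower and 2.63% higher.

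The other 3 calls were lost in several of these fits. Without 1 library, Kcnq3 was lost in 4 of 22 fits, Kcnc1 in 7 and Kcnc2 in 9, with adjusted p up to 0.0775, 0.0954 and 0.096. All 3 were lost without western 2, without western 3 and without western NaKtide 1. Kcnq3 was also lost without western 4, Kcnc2 without western 1 or 4, and both Kcnc1 and Kcnc2 without western NaKtide 2, 4, 5 or 6. Without western 2, 4 members were called, beside 10.6% of genes higher and 12.3% lower. Without western NaKtide 1 there were also 4, beside 12.2% of genes higher and 14.6% lower. Of the 9 alternative analyses, Kcnq3 was lost in 3, and Kcnc1 and Kcnc2 in 6 each. All 3 were lost with exon length and GC trends taken out, with the covariate, and in the compared groups alone. Kcnc1 and Kcnc2 were also lost without a low-count filter, with a replicate block and without the 4 libraries that hold Xist, the RNA of the inactive X chromosome.

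Other features moved with this comparison, and their part in the result was not tested. In bulk tissue, fewer cells of a type and less RNA per cell cannot be told apart. Of the marker lists in the hippocampus libraries, 4 of 6 dentate granule cell markers were lower with NaKtide (summed level 94.5 to 470.5 CPM on western diet, 41.5 to 155 with NaKtide), as were 3 of 5 Purkinje cell markers (219 to 767 and 142 to 504) and 3 of 5 astrocyte markers (1553 to 3013 and 1322 to 2053). Of 6 neocortex markers 1 was lower (169.5 to 608 and 87.6 to 472), of 6 pyramidal cell markers 1 was lower (278 to 621 and 200.5 to 502), and of 5 pan-neuronal markers 2 were lower (3956 to 5016 and 2572 to 4227). Of 2 tested cerebellar granule cell markers 1 was lower (summed over the list, 15.5 to 248 and 4.53 to 21.8). Western 4 held the western maximum of both the granule cell and the Purkinje cell markers. In contrast, 3 of 8 striatum markers were higher (147 to 415 and 203 to 3754). Also higher were 2 of 5 microglia markers, 2 of 3 blood cell markers and 1 of 5 each of the oligodendrocyte, interneuron and hypothalamus markers. Every marker of these lists had counts in both groups. Mitochondrial protein genes took 4.85% to 7.30% of counts on western diet and 5.60% to 15.6% with NaKtide. Taken across genes (no replicates of one another), the log2 fold change had a correlation of -0.403 with log exon length and 0.386 with GC content. The median exon length was 4811 bases over all 40 members, tested or not, and 3914 over the genes tested in the 42-library fit. Of the 40 members, 11 lay in the upper quartile of exon length of those genes.

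The 2 libraries with the most Kcnb2, western 2 and 3, were also among the 4 of all 42 with the highest neocortex score. The other 3, western 1, 4 and 5, were among the 4 with the highest dentate granule cell score. Western 4 was also among the 4 with the highest cerebellar granule cell score. These 3 libraries had 9.47 to 16.3 CPM of Kcnb2 and 58.2 to 83.7 CPM of Kcnd3. The part of these scores in the result was not tested.

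In libraries labelled cerebellum, no member passed for NaKtide on western diet. edgeR called 0 of 33 members and 0% of 16338 genes, at an unadjusted p under 0.05 there were 0 members, and DESeq2 called 0. The members closest to the threshold were Kcnc1 with a log2 fold change of -0.65 ± 0.33, Kcna4, a Shaker A-type gene, with 0.87 ± 0.51 and Kcnh7, an ether-a-go-go gene, with 0.85 ± 0.52 (adjusted p = 1.0 for each). Kcnb2 stood at 7.29, 7.97, 1.41, 9.79 and 6.67 CPM on western diet and at 8.31, 5.88, 6.88, 14.9 and 11.1 CPM with NaKtide, and the groups overlapped. Kcna1 stood at 3.79, 9.13, 8.44, 15.3 and 6.41 CPM and at 9.52, 9.75, 2.56, 15.5 and 11.9 CPM, again with overlap. The difference between the labels in this response was tested in the 42-library fit. By edgeR's quasi-likelihood test, the response was lower under the hippocampus label than under the cerebellum label for Kcnb2 (-2.03 ± 0.48, adjusted p = 0.0141) and Kcna1 (-2.02 ± 0.57, adjusted p = 0.0274). These were 2 of 34 members, and 0 were higher. Over all genes 4.44% were lower and 4.39% higher. For Kcnd3 (-0.73 ± 0.47, 0.290), Kcnd2 (-1.12 ± 0.54, 0.163), Kcnq3, Kcnc1 and Kcnc2 a difference between labels was not shown. Over 42 fits without 1 library, the difference of Kcna1 ran from -2.39 to -1.80 (adjusted p up to 0.0739). It was not called without cerebellum western 1, without cerebellum western NaKtide 4 and without hippocampus western 3 or 4. Each of these fits left 1 member called, beside 0.947% to 2.4% of genes lower and 1.46% to 2.3% higher. In contrast, 4 members were called without cerebellum western NaKtide 3 (beside 11% of genes lower and 12.6% higher) or hippocampus western NaKtide 6 (5.91% and 6.44%). Kcnb2 had an adjusted p of 0.0752 with trends in exon length and GC content taken out.

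**Figure D3:**
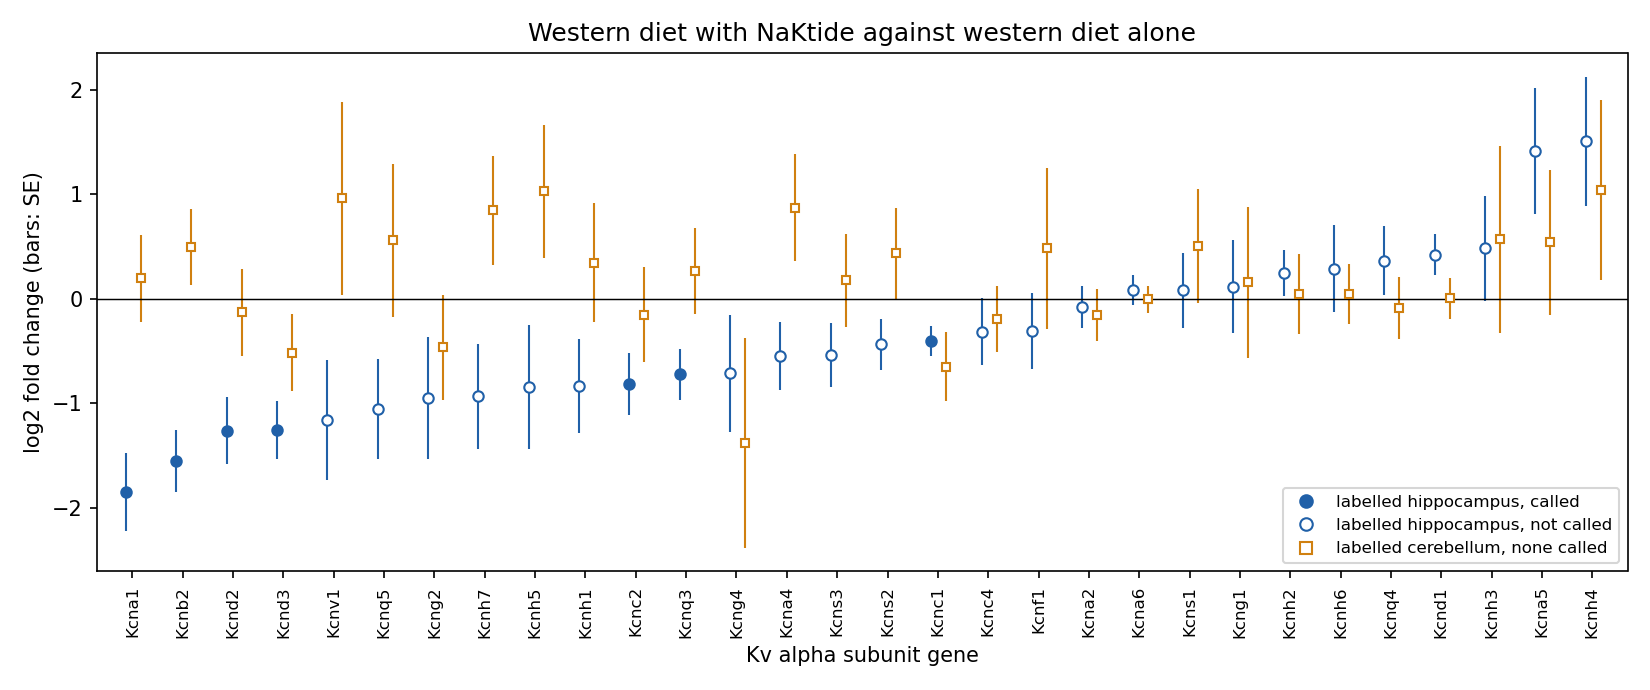
Log2 fold change (points) with SE (bars) of 30 Kv alpha subunit genes for western diet with NaKtide against western diet alone, in libraries labelled hippocampus (blue circles, filled where called) and cerebellum (orange squares). The 7 filled points lie between -1.85 and -0.40, and the orange squares of Kcna1 and Kcnb2 lie above 0.

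The western diet without NaKtide shares its western libraries with the comparison above. In libraries labelled hippocampus, edgeR called 0 of 33 members and 0% of genes, 9 members (27.3%, against 24.6% of all genes) had an unadjusted p under 0.05, and DESeq2 called 2, Kcna1 and Kcnc1, beside 3.21% of genes higher and 1.84% lower. Kcna1 had a lowest, median and highest level of 4.09, 8.01 and 13.9 CPM on control diet, below 4 of the 5 western libraries, and a log2 fold change of 1.24 ± 0.36 (adjusted p = 0.0946). Kcnc1 ran from 113 to 158 CPM on control diet and from 161 to 200.4 on western diet, with no overlap, and had 0.47 ± 0.14 (0.0995). Kcnd3 ran from 24.1 to 67.0 CPM on control diet, overlapping with the western libraries, and had 0.78 ± 0.27 (0.113). Without the 4 libraries that hold Xist, at 9.90 to 162 CPM, edgeR called 3 members, Kcna1, Kcnd2 and Kcnd3, all higher on western diet, beside 7.81% of genes higher and 5.55% lower in that fit. Without hippocampus control 6, Kcna1 was called (1.87% of genes higher, 1.27% lower), as it was without western 5 (1.36% and 0.715%). Of the 4 libraries with Xist, 2 are hippocampus control 5 and 6, the closest pair of libraries within any group. Over genes with 10 or more counts in the pair, the chi-square of their counts was 2.32 per degree of freedom, where sampling alone gives about 1, and it was 7.11 to 105 in the other 89 pairs of libraries of 1 group. The labels do not say whether they came from 1 animal, so they were also summed and counted as 1 library. Then 0 members were called for the diet without NaKtide, and the same 7 for NaKtide on western diet, beside 17% of genes higher and 16.1% lower.

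The remaining comparisons under the hippocampus label gave 0 of 33 called members each, beside 0% of genes, and DESeq2 called 0 in each. For NaKtide on control diet, 5 members had an unadjusted p under 0.05, and the smallest were those of Kcnc1 (-0.36 ± 0.15, adjusted p = 0.238), Kcnd3 (-0.69 ± 0.28, 0.243) and the modifier Kcng4 (1.35 ± 0.58, 0.255). Kcnb2 had -0.61 ± 0.31 and Kcna1 -0.92 ± 0.40 in that comparison. For the diet with NaKtide, 4 members had an unadjusted p under 0.05, with Kcnc1 (0.43 ± 0.15, 0.377), Kcnd1 (0.56 ± 0.20, 0.390) and Kcnh2, the erg channel of cardiac repolarisation (0.56 ± 0.23, 0.429), the smallest. For the interaction of diet and NaKtide there were 6, led by Kcna5 (2.30 ± 0.86, 0.233), Kcnd1 (0.75 ± 0.28, 0.239) and Kcng4 (-2.06 ± 0.80, 0.249). The interaction of Kcnb2 was -0.94 ± 0.43 (0.314), so its response to NaKtide was not shown to differ between the diets.

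Under the cerebellum label, Kcnb2, Kcnd2, Kcnd3 and Kcnq3 were each highest, among the control diet libraries without NaKtide, in control 5. Kcnd2 stood at 30.5, 20.95, 20.2, 24.3 and 52.6 CPM in control 1 to 5, and at 43.7, 88.0, 46.2, 50.8 and 107 CPM in the control libraries with NaKtide. Control 5 was the single control library inside the NaKtide range. For NaKtide on control diet, edgeR called 0 of 33 members, beside 0.00612% of genes, 7 members had an unadjusted p under 0.05, and DESeq2 called 2, among them Kcna6, beside 2.68% of genes higher and 5.64% lower. The log2 fold changes were -0.36 ± 0.13 for Kcna6 (adjusted p = 0.0989) and 1.17 ± 0.43 for Kcnd2 (0.104). The members' median was 0.83, against 0.02 over all genes. Without control 5, edgeR called 8 members: 7 were higher, among them Kcnd2, Kcnd3, Kcnh1, Kcns2 and Kcnv1, and Kcna6 was lower. In that fit 13.8% of all genes were higher and 12.7% lower. Without western NaKtide 3, 1 member was called, beside 2.77% of genes higher and 5.60% lower.

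Markers of cell types moved with this comparison, and their part in it was not tested. In the fit of all libraries of the label 0 markers of any list were called. The largest medians of the log2 fold change were -6.18 over 3 serotonin neuron, -4.97 over 4 tested hypothalamus and -3.84 over 2 tested pituitary markers. Further medians were -1.81 over 5 midbrain dopamine neuron, -1.75 over 3 blood cell and -1.22 over 5 oligodendrocyte markers. On the positive side they were 1.44 over 8 striatum, 1.31 over 6 dentate granule cell, 0.84 over 6 neocortex and 0.45 over 5 pan-neuronal markers. Summed levels ran from 3660 to 15760 CPM on control diet and from 1749 to 6863 with NaKtide for oligodendrocyte markers, from 519 to 3226 and from 208 to 677 for blood cell markers, and from 95.3 to 411 and from 114 to 579 for neocortex markers. Control 5 stood apart from controls 1 to 4 in these scores: its oligodendrocyte score was 8.47 (9.77 to 10.7 in the other 4), its blood cell score 6.01 (7.18 to 8.60) and its neocortex score 5.77 (3.0 to 4.68).

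The diet without NaKtide shares those control libraries. There edgeR called 0 of 33 cerebellum members, beside 0.00612% of genes, 5 members had an unadjusted p under 0.05, and DESeq2 called 0. Kcnd2 had 1.16 ± 0.43 (0.175) and Kcna6 -0.29 ± 0.13 (0.221). Without control 5, 2 members were called, among them Kcnh1, beside 2.74% of genes higher and 2.35% lower. The diet with NaKtide gave 0 called members (0% of genes, 0 members at an unadjusted p under 0.05, 0 by DESeq2), with Kcnh2 (0.68 ± 0.39) and Kcnd3 (-0.61 ± 0.37) closest to the threshold. The interaction gave 0 called members (0.00612% of genes, 3 members at an unadjusted p under 0.05, 0 by DESeq2), with Kcnd3 at -1.43 ± 0.52 (0.251) and Kcnd2 at -1.31 ± 0.60 (0.273). For the diet without NaKtide, the difference between the labels was called in 0 of 34 members and 0% of genes, 1 member, Kcns3, had an unadjusted p under 0.05 (1.15 ± 0.55, adjusted p = 0.913), and DESeq2 called 0. Kcnb2 (0.76 ± 0.48) and Kcna2 (0.48 ± 0.33) followed.

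Members also varied with the brain region whose markers a library held. For each of 8 marker lists, the 4 libraries with the highest score were set beside the 21 with the lowest, as a description with no test, since these sets come from the data. Levels here are CPM scaled over all 42 libraries. A member was counted where the 2 sets did not overlap.

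For cerebellar granule cell markers, the higher members included Kcng4, beside 0.339% of genes, and 0 of 34 were lower, beside 0.0234%. The libraries richest in these markers were cerebellum western 3, cerebellum control with NaKtide 5, cerebellum control 1 and hippocampus western 4. Kcng4, a silent modifier, ran from 24.7 to 166 CPM (median 55.1) there and from 2.38 to 23.2 (median 6.31) in the 21, an 8.74-fold difference of medians. It was highest in cerebellum western 3, and 1 of the 4 libraries carried the hippocampus label.

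For striatum markers, 2 members were higher, beside 1.35% of genes, and 0.193% of genes were lower. The richest libraries were hippocampus western NaKtide 6, cerebellum control with NaKtide 2, cerebellum western NaKtide 1 and hippocampus control 3. The Shaker gene Kcna5 ran from 13.7 to 28.2 CPM there and from 0.525 to 7.68 in the 21, and the modifier Kcns2 from 26.7 to 37.3 and from 4.37 to 25.1. Hippocampus western NaKtide 6, the highest library for Kcna5, is 1 of the 6 NaKtide libraries of the comparison in which Kcna5 had its uncalled positive value.

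For dentate granule cell markers, 1 member was higher (0.65% of genes) and 0 were lower (0.0351%). This was the modifier Kcng2, with 12.6 to 32.2 CPM in hippocampus western 1, 4 and 5 and hippocampus control with NaKtide 1, and 1.23 to 11.8 CPM in the 21. All 4 of these libraries carried the hippocampus label.

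Neocortex markers gave the most: 5 members named here were higher, beside 3.19% of genes, and 0 were lower, beside 5.33%. The 4 libraries were hippocampus western 2 and 3, hippocampus control 1 and cerebellum western NaKtide 4. The largest ratios of medians were 7.03 for the modifier Kcnv1 (53.6 to 68.1 CPM against 0.350 to 30.8), 4.92 for the erg gene Kcnh7 (53.9 to 73.0 against 5.77 to 25.4) and 3.15 for the modifier Kcnf1 (119 to 147 against 2.28 to 94.9). The ether-a-go-go gene Kcnh1 (57.2 to 73.7 against 1.78 to 41.1) had a ratio of 2.97, and Kcnb2 (13.6 to 24.2 against 1.40 to 10.3) one of 2.87. Kcnb2 and 2 modifiers of Shab channels, Kcnv1 and Kcnf1, were thus high in the same libraries, as were Kcnh1 and Kcnh7. The other tested modifiers overlapped between the 2 sets, with ratios of medians from 0.387 (Kcng4) to 2.36 (Kcns1).

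**Figure D4:**
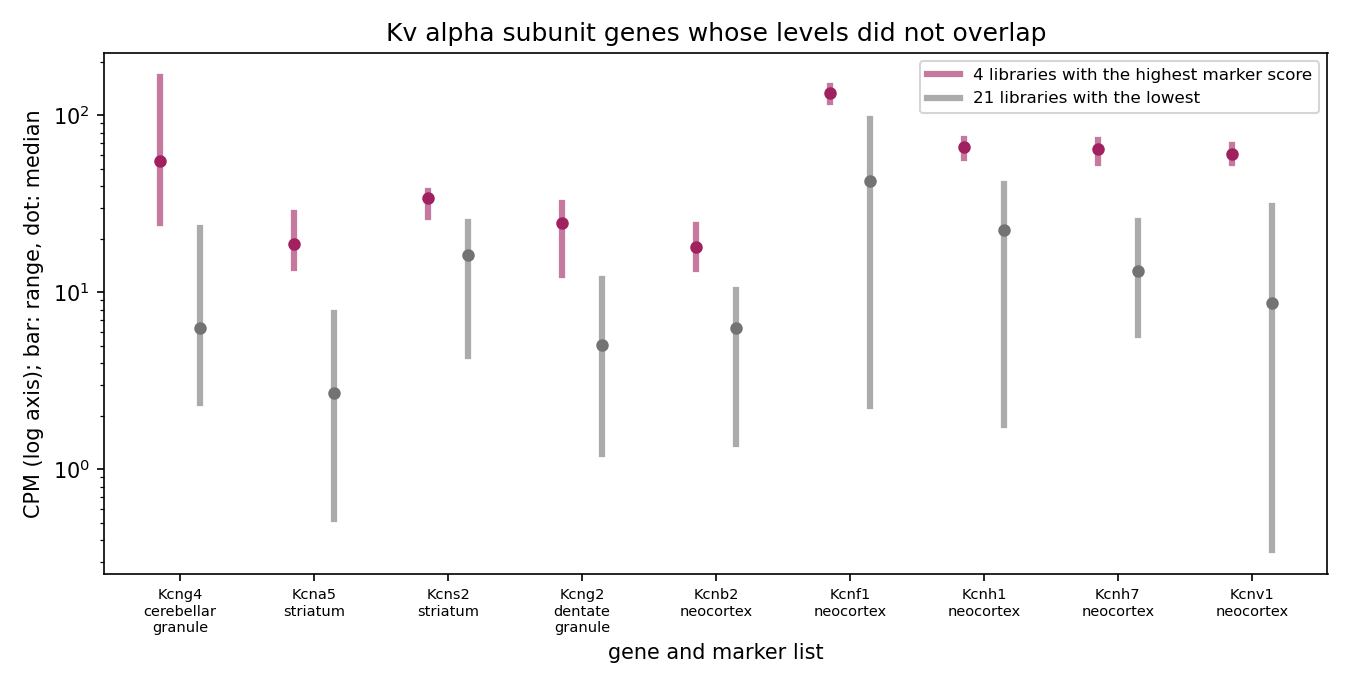
CPM (log axis) of 9 Kv alpha subunit genes whose levels did not overlap between the 4 libraries with the highest score of a marker list and the 21 with the lowest; bars are ranges and dots medians. In all pairs shown the marker-rich libraries are higher, and Kcng4 differs most, 8.74-fold between medians.

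The lists of the thalamus, choroid plexus, pituitary and midbrain dopamine neurons separated 0 of 34 members each, beside 0.205%, 1.38%, 6.86% and 1.26% of genes in either direction.

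Partners and other potassium channels were counted in the same comparison, NaKtide on western diet under the hippocampus label. Of the auxiliary subunits and anchoring proteins of Kv channels, 4 of 20 tested were lower and 1 higher, with a median log2 fold change of -0.29. These included Lgi1, a secreted protein linked to epilepsy that binds at Shaker channels (-0.83 ± 0.22, adjusted p = 0.00799), and Kcnab2, a cytoplasmic beta subunit (-0.63 ± 0.19, 0.0145). Inward rectifiers had 2 of 13 lower, the G protein-gated Kcnj6 (-2.08 ± 0.42, 0.00271) and Kcnj3 (-0.82 ± 0.22, 0.00852). Among two-pore channels 1 of 9 was lower, the stretch-sensitive Kcnk10 (-0.74 ± 0.22, 0.0134). Calcium- and sodium-activated channels had 2 of 10 lower, Kcnt2 (-1.77 ± 0.41, 0.00489) and Kcnn2 (-0.84 ± 0.20, 0.00498), and 1 higher. Set beside 16.3% lower and 17.4% higher over all genes, the shares lower were 20% of the auxiliary and anchoring genes and 21.2% of the Kv alpha subunits. In libraries labelled cerebellum, edgeR called 0 genes of these 4 lists in the same comparison, with 3 at an unadjusted p under 0.05.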

How the data were processed

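RNA was measured by sequencing in 42 libraries. Per the submitters' processing notes, Trimmomatic 0.38, HISAT2 2.1.0, DESeq2 1.20.0 and the build GRCm38 were used, while the sources used here name neither the read counter nor the annotation. The authors deposited a raw count for each of 54232 Ensembl genes, a normalized signal (the count divided by a size factor of its library) and FPKM, which equalled the authors' normalized count divided by 6.757 times the GENCODE M21 exon length in kb for all 40 members. FPKM served only for levels between genes. Counts were fitted with edgeR 4.0.16 (R 4.3.3, TMM factors, filterByExpr, quasi-likelihood F test), the 4 groups of a label together or all 8 groups for contrasts of labels, with Benjamini-Hochberg adjustment over all genes tested and a threshold of 0.05. CPM use TMM factors, and errors are SD for levels and SE for log2 fold changes. Symbols were found for 54079 IDs. The tests were tried on simulated counts.

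The members and gene lists were chosen with earlier results of these data known. Named are all called members, the 3 smallest p where fewer than 3 were called, the most abundant member of each subfamily, untested members, members separated by marker scores (up to 5 each way by ratio), further values of called members and their relatives chosen after they were seen, and the 2 called genes with the smallest p of each other list. Some members that this rule names are not reported here, though they stay in the counts. Alternatives were DESeq2 size factors, DESeq2 1.42.0, no filter, the compared groups alone, a replicate block, exon length and GC trends removed as offsets, a component covariate, 4 libraries with Xist left out, hippocampus control 5 and 6 summed, and each library left out. The labels do not say what a replicate number marks, so no pairing was used. Deviations of same-numbered libraries from their group means had a median correlation of -0.0579 in cerebellum, -0.109 in hippocampus and -0.00334 between labels. Libraries of 1 group also differed in their marker scores, so these medians do not settle whether the numbers mark a pairing.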

Additional observations from a re-analysis of the deposited data

Results flagged for a closer look

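For each of the 7 called genes, the 8 groups of 5 or 6 libraries were examined for a library far from the rest, 56 sets of values. The rule took the gap to the nearest library over the range of the set, in CPM. For normally distributed values, chance would flag about 1 in 20 independent sets. The CPM values were not shown to be normally distributed, and these sets share their libraries and are not independent. There were 9 flags, all on the high side, and some libraries were flagged for more than 1 gene.

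Kcnc1 stood out in hippocampus western NaKtide 3 at 201 CPM (the other 5 had 106 to 127), in hippocampus control 4 at 158 CPM (113 to 125) and in cerebellum control with NaKtide 5 at 251 CPM (118 to 143). Kcnc2 stood out in hippocampus western NaKtide 3 at 108 CPM (24.97 to 42.6), so both Shaw genes were high in that library, which also had the highest mitochondrial share of its group, 15.6%, and the highest thalamus marker score of all libraries, 6.99. Kcnd2 stood out in hippocampus western NaKtide 6 at 84.2 CPM (18.0 to 40.5) and in cerebellum western 3 at 128 CPM (44.4 to 57.6). Hippocampus western NaKtide 6 had the highest striatum marker score of all libraries, and cerebellum western 3 the highest granule cell marker score.

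Kcna1 stood out in cerebellum control with NaKtide 5 at 15.9 CPM (4.49 to 7.24). In cerebellum control 5, Kcnd3 at 58.9 CPM (18.0 to 27.9) and Kcnq3 at 132 CPM (36.9 to 63.1) stood out, the library without which 8 members were called for NaKtide on control diet.

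For Kcnb2 and Kcna1, the response to NaKtide on western diet differed between the labels by -2.026 and -2.022 on the log2 scale (edgeR contrast, adjusted p = 0.0141 and 0.0274).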

How the results depend on the processing

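No called member changed direction under any alternative run. For NaKtide on western diet under the hippocampus label (7 members), 4 were called with exon length and GC trends taken out (11.2% of genes higher, 9.71% lower). With the component covariate 4 were called (2.63% and 2.93%), and in the compared groups only 4 (13.8% and 15.8%). Between 4 and 10 were called when single libraries were left out, beside 10.6% to 18.8% of genes higher and 11.7% to 17.9% lower. The counts were 7 with DESeq2 size factors (17.2% of genes higher, 16.2% lower) and 7 with hippocampus control 5 and 6 summed (17% and 16.1%). They were 8 without the 4 libraries with Xist (17.2% and 16.6%) and 6 without a filter (6.92% and 7.1%), each sharing 5 of the 7, without Kcnc1 and Kcnc2. DESeq2 called 9 (19% and 17.8%), sharing all 7. For the difference of this response between labels (2 members), 1 was called with length and GC trends taken out (2.86% of genes higher, 0.895% lower). In the compared groups only 1 was called (1.54% and 2.82%). Fits without single libraries called 1 to 4, beside 1.46% to 12.6% of genes higher and 0.947% to 11% lower. For the diet without NaKtide under the hippocampus label (0 members), DESeq2 called 2 (3.21% of genes higher, 1.84% lower). The fit without libraries with Xist called 3 (7.81% and 5.55%). Fits without single libraries called 0 to 1 (1.87% and 1.27% without control 6, 1.36% and 0.715% without western 5). Under the cerebellum label, the diet without NaKtide (0) gave 0 to 2 without single libraries. The 2 were called without control 5, beside 2.74% of genes higher and 2.35% lower. NaKtide on control diet (0) gave 2 with DESeq2 (2.68% and 5.64%) and 0 to 8 without single libraries. The 8 were called without control 5, beside 13.8% of genes higher and 12.7% lower.

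With the replicate block, 7 members were called for NaKtide on western diet under the hippocampus label (15.8% of genes higher, 16% lower). Of these, 5 were shared with the fit without it. For the difference between labels 3 were called (6.64% and 6.96%), while the other comparisons gave 0. Calls of genes with few counts, such as Kcnb2 with a mean of 60.3 counts per library, rest on little depth.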
